A study of Mus musculus with 6 samples.

Results

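The CD115+Ly6C- subset of common dendritic cell progenitors was measured in 2 of the 6 RNA libraries of the series. It was set against the midpoint of the other subsets, CD115+Ly6C+ and CD115-Ly6C-, with 2 libraries each. The midpoint is the equal-weight mean of those subsets on the log2 scale, so a gene at the midpoint has a deviation of 0. A gene was placed above or below both other subsets when it was called away from the midpoint and both CD115+Ly6C- libraries lay beyond all 4 others. All cells came from the bone marrow of wildtype C57BL/6 mice aged 6 to 8 weeks, were sorted by flow cytometry, and gave polyA-enriched libraries. No treatment or transgene is named for any subset, and the labels name no sort marker other than CD115 and Ly6C. The labels do not say whether the libraries of a subset came from separate mice or sorts, so p-values measure only the spread between these libraries, which may be technical.

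Common dendritic cell progenitors give rise to conventional and plasmacytoid dendritic cells. Csf1r encodes CD115, through which cells respond to macrophage colony-stimulating factor. Ly6C is a surface protein carried by monocytes and cells on the way to them. MHC class II molecules are alpha and beta chain pairs that carry peptides to the cell surface for CD4+ T cells. In the mouse, H2-Aa and H2-Ab1 encode the chains of I-A, and H2-Eb1 encodes the beta chain of I-E. Cd74 encodes the invariant chain, which accompanies new class II molecules and keeps their groove closed. H2-DM (H2-DMa, H2-DMb1, H2-DMb2) loads the peptide, and H2-DO (H2-Oa, H2-Ob) restrains H2-DM. Ciita is the coactivator of the class II promoters, and mature dendritic cells are known for high class II levels.

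Class II promoters share an upstream module that ends in a Y box, read as GATTGG on one strand and CCAATC on the other. Stretches from 4 class II genes are shown because all 4 hold the Y box letters while their levels in CD115+Ly6C- did not move alike: edgeR and DESeq2 called H2-Aa and H2-Eb1 below the midpoint, DESeq2 alone called H2-Ob, and neither called H2-DMb1. Each runs 5′ to 3′ on the strand of its gene, from 110 to 31 bases before the RefSeq start (GRCm38.p6), with the Y box letters in capitals.
H2-Aa (chr17:34287854-34287933, minus strand): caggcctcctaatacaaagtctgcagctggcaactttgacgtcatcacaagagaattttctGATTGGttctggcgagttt
H2-Eb1 (chr17:34305757-34305836, plus strand): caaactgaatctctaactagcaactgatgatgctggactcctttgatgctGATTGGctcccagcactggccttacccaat
H2-Ob (chr17:34238795-34238874, plus strand): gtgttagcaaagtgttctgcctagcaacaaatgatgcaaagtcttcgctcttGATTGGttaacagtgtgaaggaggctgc
H2-DMb1 (chr17:34153081-34153160, plus strand): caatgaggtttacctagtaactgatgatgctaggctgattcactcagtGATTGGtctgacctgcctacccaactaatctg
No other motif was searched. The letters GATTGG, on either strand, stood in the 300-base promoter window of 8 of 8 H2 genes of the class II list that the table held, and in 16.1% of all 32851 windows. List genes outside the H2 family were not counted. This is a description of letters and does not show binding.

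Each library had between 17961541 and 19450329 expected counts. Of 16135 genes listed, 12127 were tested. Of the 4768 genes that differed between the other subsets (39.3% of those tested, edgeR adjusted p under 0.05), 4206 (88.2%) had their CD115+Ly6C- mean between them. Their median position was 46.7% of the way from CD115+Ly6C+ to CD115-Ly6C-. Over all genes the median deviation was -0.0045, with the 5th percentile at -0.91 and the 95th at 0.46, so the low side was the wider.

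The genes of the sorted proteins were not called away from the midpoint by edgeR, while DESeq2 called Ly6c2 below it (adjusted p = 0.0021). Csf1r was at 414 and 512 CPM in CD115+Ly6C-, against 553 and 531 in CD115+Ly6C+, with 213 and 259 in CD115-Ly6C- (deviation 0.37 ± 0.12 (SE, n = 2), edgeR adjusted p = 0.23). CPM here are read counts brought to a common library size, scaled by TMM. Csf1r was thus nearer to CD115+Ly6C+, with no overlap with CD115-Ly6C-. Ly6c2 was at 121 and 188 CPM against 1438 and 1400 in CD115+Ly6C+, with 41.8 and 61.8 in CD115-Ly6C- (deviation -0.81 ± 0.20 (SE), edgeR adjusted p = 0.17), so the Ly6C- sort matched its gene. Ly6c1 is a near-identical copy, and RSEM divides reads between such copies by estimation, so both values are uncertain. Flt3, the receptor for the cytokine that drives dendritic cell development, was at 666 and 657 CPM, above 373 and 342 in CD115+Ly6C+ and below 1139 and 1063 in CD115-Ly6C-. Its deviation was 0.08. Kit, the stem cell factor receptor, deviated by 0.04, and Il7r, the interleukin 7 receptor chain, by 0.25.

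The edgeR test called 6 genes below the midpoint (0.0495% of the genes tested) and 0 above it. All 6 lay below both other subsets, and all 6 also passed the edgeR test against each other subset, a count that was 5 with library totals, with the length trend removed or with a replicate block. They were H2-Eb1, H2-Aa, H2-Ab1 and Cd74 of the class II pathway, the mast cell carboxypeptidase gene Cpa3, and Crip1, which encodes a small LIM domain protein. At an unadjusted edgeR p under 0.05 there were 900 genes below (7.42%) and 927 above (7.64%). DESeq2 called 195 genes below the midpoint (1.61%) and 137 above (1.13%), of which 100 (0.825%) and 66 (0.544%) lay beyond both other subsets. The smallest edgeR adjusted p of a gene above the midpoint was 0.106. With either CD115+Ly6C- library left out, 1 library stood for the subset. H2-Eb1 then deviated by -2.08 without replicate 1 and -2.22 without replicate 2, and edgeR kept none of the calls. With CD115-Ly6C- replicate 2 left out it called 56 below and 8 above. H2-Eb1, Cd74 and H2-Aa were taken up as marks of this subset with earlier results of these data known, so their low level is a description and not independent support.

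H2-Eb1 (chr17:34305867-34316674) was at 2.20 and 2.44 CPM in CD115+Ly6C-, against 12.2 and 11.5 in CD115+Ly6C+, with 10.2 and 7.91 in CD115-Ly6C-. Both CD115+Ly6C- libraries were below the lowest of the others, at a level 4.45-fold under the midpoint (deviation -2.15 ± 0.25 (SE), edgeR adjusted p = 0.029). These levels rest on 42 and 46 reads in CD115+Ly6C- and on 159 to 218 elsewhere. H2-Aa (chr17:34282744-34287823) was at 5.30 and 6.10 CPM against 17.2 and 17.5 in CD115+Ly6C+, with 16.4 and 20.6 in CD115-Ly6C-. The other subsets overlapped each other for H2-Aa, and CD115+Ly6C- stood alone beneath them (deviation -1.65 ± 0.19 (SE), edgeR adjusted p = 0.029).

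H2-Ab1 (chr17:34263227-34269418) was at 12.5 and 12.6 CPM, against 36.4 and 48.4 in CD115+Ly6C+, with 28.6 and 36.0 in CD115-Ly6C-. Its deviation was -1.56 ± 0.17 (SE), 2.95-fold under the midpoint (edgeR adjusted p = 0.029). Cd74 (chr18:60803849-60812652) was at 19.0 and 19.1 CPM, against 51.0 and 77.0 in CD115+Ly6C+, with 73.6 and 87.6 in CD115-Ly6C-. Its deviation was -1.91 ± 0.19 (SE, edgeR adjusted p = 0.015). The CD115+Ly6C- libraries of Cd74 differed less from each other than those of the other subsets did. H2-Eb1 and H2-Aa missed the threshold when either CD115+Ly6C+ library was left out (edgeR adjusted p = 0.0697 without replicate 1 and 0.0777 without replicate 2), and H2-Ab1 when replicate 2 was (0.0512). H2-Eb1 also missed it with a replicate block (edgeR adjusted p = 0.0595). Under limma voom H2-Eb1 (adjusted p = 0.131), H2-Aa and H2-Ab1 (both 0.113) and Cpa3 (0.131) missed it. Over every alternative run the deviation of H2-Eb1 stayed between -2.24 and -2.05 and that of H2-Ab1 between -1.65 and -1.45.

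**Figure D1:**
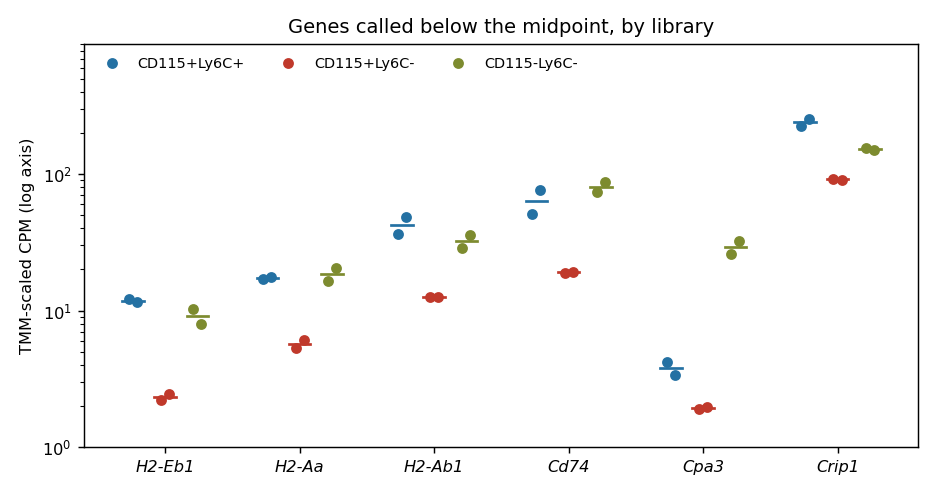
Level of the 6 genes called below the midpoint, in TMM-scaled CPM on a log axis. Each point is 1 library, each bar the mean of the subset's 2 libraries, and for every gene both CD115+Ly6C- points lie under the other 4.

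Per length, in FPKM as the authors computed it, the CD115+Ly6C- level was 17.6 ± 0.16 (SD, n = 2) for Cd74, 12.2 ± 0.16 for H2-Ab1, 6.22 ± 0.64 for H2-Aa and 1.54 ± 0.12 for H2-Eb1. Of the loading genes, H2-DMa was at 243 ± 0.40 FPKM and H2-DMb1 at 105 ± 1.4, above all 4, while H2-DMb2, at 17.9 ± 3.1, did not differ from Cd74 beyond its spread.

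The other genes of the class II pathway were not called by edgeR. Of 15 list genes tested, edgeR called 4 below (0.0495% over all genes) and 0 above, and DESeq2 called 5 below (1.61% over all genes) and 1 above (1.13%), with a median deviation of -0.40 against -0.0045 over all genes, and 14 of the 15 deviations were below 0. The list was drawn up with earlier results known. H2-DMa (364.9 and 362.2 CPM) lay between CD115+Ly6C+ (447 and 486) and CD115-Ly6C- (308 and 347), at a deviation of -0.10 ± 0.09 (SE). It overlaps the gene Brd2, and the strandedness of the libraries is not stated. H2-DMb1 was at 117 and 118 CPM, also between CD115+Ly6C+ (194 and 233) and CD115-Ly6C- (72.6 and 94.9), at -0.18 ± 0.13 (SE). The remaining list genes are named here after their values were seen. H2-DMb2 deviated by -0.20 and H2-Oa by -0.23.

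H2-Ob had the opposite order in the outer subsets, with 30.4 and 27.9 CPM in CD115+Ly6C+ against 307 and 297 in CD115-Ly6C-. The CD115+Ly6C- libraries were at 74.0 and 73.7 CPM. Its deviation was -0.35 ± 0.09 (SE, edgeR adjusted p = 0.18, DESeq2 adjusted p = 0.043). Ciita was near the detection limit in every library, at 0.996 and 0.743 CPM in CD115+Ly6C- and 0.54 to 2.21 in the others, with ranges that overlap. The lysosomal genes split: Ctss, a protease that trims the invariant chain, deviated by -0.05, Ifi30, a thiol reductase, by -0.43, and Ctsl, another protease, by -0.40. Lgmn, the asparaginyl endopeptidase, was at 234 and 227 CPM, above 163 and 219 in CD115+Ly6C+ and above 102 and 148 in CD115-Ly6C-. Its deviation of 0.58 ± 0.16 (SE) missed the threshold by edgeR (adjusted p = 0.20) and passed by DESeq2 (adjusted p = 0.037).

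Genes that edgeR called in the class II region stood side by side. From H2-Oa to H2-Eb2 (chr17:34092379-34341410, GRCm38.p6) 14 genes were tested. The 3 called by edgeR (0.0495% over all genes), H2-Ab1, H2-Aa and H2-Eb1, are neighbours in that order. They are the I-A and I-E chain genes already described, so their place describes the same calls and is not a further result. H2-Eb2, the next gene, had 0 and 1 reads in CD115+Ly6C-, against 0 and 10 in CD115+Ly6C+, with 16 and 7 in CD115-Ly6C-, too few to place it. The other 10 genes deviated by -0.35 to 0.18, with a lowest edgeR adjusted p of 0.18. The peptide transporter and immunoproteasome genes of MHC class I that lie there (Tap1, Tap2, Psmb8, Psmb9) are among these 10.

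**Figure D2:**
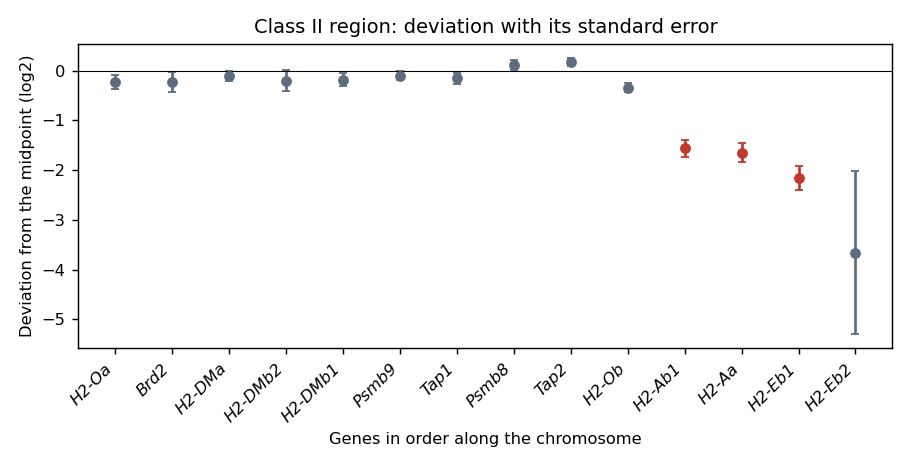
Deviation of CD115+Ly6C- from the midpoint (log2) for the 14 tested genes of the class II region in chromosomal order, with its standard error as bars. The 3 called genes (red) sit next to each other between -2.15 and -1.56, and the wide bar of H2-Eb2 rests on 1 read in CD115+Ly6C-.

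In bulk RNA a lower level cannot be told apart from fewer cells that carry the transcript. Marker sums of cell types that express class II were read in the same libraries. The 5 B cell markers summed to 2.36 and 6.10 CPM in CD115+Ly6C-, against 2.84 and 5.75 in CD115+Ly6C+, with 28.9 and 25.2 in CD115-Ly6C-. Pax5 was at 0 in both libraries of CD115+Ly6C- and of CD115+Ly6C+, and at 0.101 and 0 CPM in CD115-Ly6C-. The 5 conventional dendritic cell markers summed to 69.5 and 74.6 CPM, between CD115+Ly6C+ (155.5 and 183.3) and CD115-Ly6C- (43.4 and 40.7). The 5 macrophage markers summed to 5.61 and 6.26 CPM, again below 13.3 and 16.1 in CD115+Ly6C+ and above 2.31 and 3.23 in CD115-Ly6C-. C1qa and C1qb were near the floor in every library, with at most 0.106 CPM in CD115+Ly6C- and at most 0.359 in the others. The 4 plasmacytoid dendritic cell markers summed to 438 and 440 CPM, between CD115+Ly6C+ (403 and 347) and CD115-Ly6C- (550 and 589). The part of such cells in the class II levels was not tested. Common dendritic cell progenitor markers (Flt3, Csf1r, Kit, Irf8, Cd34, Csf2ra) were all read in CD115+Ly6C-, summing to 4635 and 4967 CPM against 4012 to 5087 elsewhere. Irf8 alone gave 2317 and 2714 CPM of these sums. Every subset carries the same progenitor label, so the sum does not test it.

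Cpa3 (chr3:20215616-20242209) was at 1.89 and 1.96 CPM in CD115+Ly6C-, against 4.18 and 3.35 in CD115+Ly6C+, with 26.0 and 32.1 in CD115-Ly6C-. Its deviation of -2.44 ± 0.23 (SE, edgeR adjusted p = 0.015) was the most negative of the called genes, and it came mostly from CD115-Ly6C-. Against CD115+Ly6C+ alone the log2 difference was -0.97, with an edgeR adjusted p of 0.050 that only just passed. Other basophil and mast cell genes were not called. Mcpt8, a basophil protease, was at 13.7 and 7.16 CPM in CD115+Ly6C-, against 27.2 and 13.7 in CD115+Ly6C+, with 13.1 and 19.2 in CD115-Ly6C-, and these ranges overlap. Ms4a2, a chain of the IgE receptor, was at 0.16 and 1.01 CPM, on 3 and 19 reads. This was under 2.84 and 1.26 in CD115+Ly6C+, and just under 1.06 and 1.04 in CD115-Ly6C- (edgeR adjusted p = 0.43). Gata2, a factor of mast cells and stem cells, was at 2.04 and 1.17 CPM, overlapping 0.67 and 1.20 in CD115+Ly6C+. The 5 basophil or mast cell markers, Cpa3 included, summed to 32.2 and 17.8 CPM in CD115+Ly6C-, below 88.8 and 41.1 in CD115+Ly6C+ and below 51.5 and 68.4 in CD115-Ly6C-. Cpa3 itself gave 26.0 and 32.1 CPM of the CD115-Ly6C- sums, so the sum is not separate from the Cpa3 level. Of the other markers, Mcpt8 and Prss34 (14.5 and 6.47 CPM against 4.83 and 11.4) overlapped CD115-Ly6C-, while Ms4a2 and Gata2 lay under it. The part of basophils or mast cells in the Cpa3 level was not tested.

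Crip1 (chr12:113152012-113153879) was the most abundant called gene. It was at 92.7 and 90.6 CPM in CD115+Ly6C-, against 226 and 253 in CD115+Ly6C+, with 155 and 150 in CD115-Ly6C-. The subsets did not overlap, and CD115+Ly6C- was 2.09-fold under the midpoint (deviation -1.06 ± 0.10 (SE), edgeR adjusted p = 0.015). Crip1 and Cd74 were the 2 genes that limma voom also called.

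**Figure D3:**
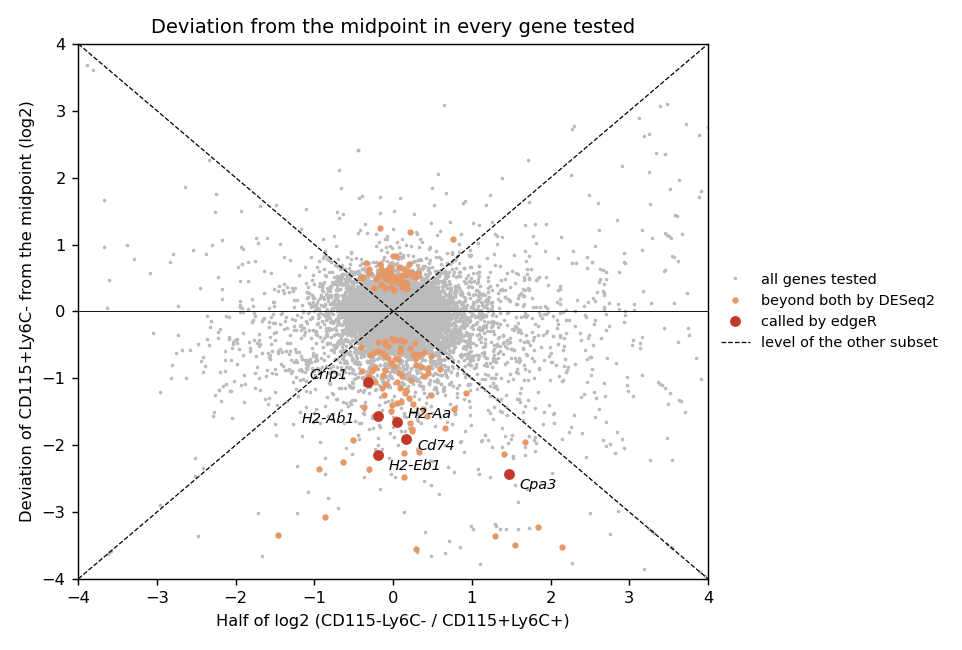
Deviation of CD115+Ly6C- from the midpoint against the log2 difference between CD115-Ly6C- and CD115+Ly6C+ divided by 2, 1 point per gene tested, with 50 genes beyond the axis limits of 4. Points above or below both dashed lines had a fitted level beyond both other subsets, and the 6 genes called by edgeR (red) all lie under them, with genes that DESeq2 placed beyond both in orange.

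Genes just outside the threshold are given by their values. They were chosen after the values were seen. Cd7, an immunoglobulin family receptor, was at 27.9 and 33.0 CPM in CD115+Ly6C-, against 57.9 and 68.7 in CD115+Ly6C+, with 61.1 and 81.8 in CD115-Ly6C- (deviation -1.14 ± 0.16 (SE), edgeR adjusted p = 0.072). Sqor, a mitochondrial sulfide oxidase, was at 3.36 and 3.82 CPM against 8.25 and 11.3 in CD115+Ly6C+, with 13.8 and 12.6 in CD115-Ly6C-. Samd9l, an interferon-induced gene, was at 8.97 and 11.6 CPM against 19.6 to 22.5 in the other 4 libraries. In these genes CD115+Ly6C- stood apart from subsets that lay close to each other. Ltb, the lymphotoxin beta chain, and Glipr2 showed another shape. Ltb was at 1.31 and 1.33 CPM, close to 1.67 and 1.56 in CD115+Ly6C+ and far under 16.1 and 16.7 in CD115-Ly6C-, so its deviation of -1.96 rested on the last subset. Zyx, a focal adhesion protein gene that overlaps Epha1, was at 101 and 118 CPM, against 134 in both CD115+Ly6C+ libraries and 228 and 204 in CD115-Ly6C-.

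On the high side the departures were smaller. The 66 genes that DESeq2 placed above both other subsets had a median edgeR deviation of 0.51, and 3 of them reached 2-fold. The 100 below both had a median of -1.11, and 56 reached 2-fold. These sets were defined by the same contrast, so the medians describe them and test nothing. Fancd2, a DNA crosslink repair gene that overlaps Fancd2os, had the smallest edgeR adjusted p above the midpoint. It was at 115 and 90.3 CPM in CD115+Ly6C-, against 70.6 and 69.8 in CD115+Ly6C+, with 52.7 and 58.2 in CD115-Ly6C- (deviation 0.72 ± 0.12 (SE), edgeR adjusted p = 0.106). Gja1, the connexin 43 gene, had a deviation of 1.19 at 9.86 and 8.43 CPM against 3.23 to 5.38 in the other libraries (edgeR adjusted p = 0.15). Cnn3, an actin-binding calponin, was at 993 and 819 CPM, above 476 and 500 in CD115+Ly6C+ and above 714 and 810 in CD115-Ly6C-. Tmem119, a bone and microglia membrane protein gene, was at 201 and 203 CPM against 134 in both CD115+Ly6C+ libraries and 153 and 184 in CD115-Ly6C-. All of these genes passed the DESeq2 test, and none passed edgeR's.

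DNA replication genes lay above the midpoint without a call by edgeR. Of 30 S phase genes tested, 28 deviated upward, with a median of 0.20, and edgeR called 0. At an unadjusted edgeR p under 0.05 there were 11 above (the background was 7.64%) and 0 below, and DESeq2 called 4 above (background 1.13%). In 11 of the 30 both CD115+Ly6C- libraries exceeded all 4 others, against 6.16% of all genes tested. Against CD115+Ly6C+ the list's median log2 difference was 0.06, and against CD115-Ly6C- it was 0.32. Pola1, Mcm4 and Rrm1 are the 3 members that DESeq2 placed above both subsets (0.544% over all genes). Pola1, the catalytic subunit of DNA polymerase alpha, was at 237 and 195 CPM against 134 to 150 in the other libraries (deviation 0.59 ± 0.10 (SE), edgeR adjusted p = 0.13). Mcm4, a helicase subunit, was at 465 and 444 CPM, against 308 and 327 in CD115+Ly6C+, with 369 and 398 in CD115-Ly6C-. Rrm1, the large subunit of ribonucleotide reductase, was at 1238 and 1175 CPM, with CD115+Ly6C+ close beneath at 1115 and 1126 and CD115-Ly6C- at 757 and 832. Cdk6, a G1 kinase off this list, was at 1290 and 950 CPM, against 686 and 613 in CD115+Ly6C+, with 795 and 904 in CD115-Ly6C-.

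Mitotic genes deviated further but did not exceed both subsets. All 30 G2 and M phase genes tested deviated upward, with a median of 0.44. At an unadjusted edgeR p under 0.05 there were 24 above (7.64% over all genes), DESeq2 called 12 above (1.13% over all genes), and edgeR called 0. In 0 of the 30 did both CD115+Ly6C- libraries exceed all 4 others, against 6.16% of all genes tested. The median log2 difference was 1.06 against CD115-Ly6C- and -0.15 against CD115+Ly6C+. Top2a, the DNA topoisomerase of chromosome segregation, was at 1251 and 1100 CPM in CD115+Ly6C-, level with 1109 and 1069 in CD115+Ly6C+ and above 558 and 665 in CD115-Ly6C-. Mki67, the Ki-67 gene, was at 382 and 279 CPM, against 351 and 311 in CD115+Ly6C+, with 119 and 150 in CD115-Ly6C-. For mitotic genes, then, the departure from the midpoint was a level like that of CD115+Ly6C+. The S phase list as a whole was also near CD115+Ly6C+ (median log2 difference 0.06), while several of its genes lay above both.

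Interferon-stimulated genes lay under the midpoint, nearer to CD115+Ly6C+. Of 30 tested, 29 deviated downward, with a median of -0.64. The median log2 difference was -1.20 against CD115-Ly6C- and -0.17 against CD115+Ly6C+. At an unadjusted edgeR p under 0.05 there were 16 below (the background was 7.42%) and 0 above, DESeq2 called 9 below (1.61% over all genes), and edgeR called 0. In 5 of the 30 both CD115+Ly6C- libraries lay under all 4 others, against 5.65% of all genes tested. DESeq2 placed 4 of the 30 below both subsets (0.825% over all genes), Ifi27l2a, Iigp1, Oas1a and Usp18. Usp18, the protease that removes ISG15, was at 19.98 and 19.68 CPM against 30.8 and 40.4 in CD115+Ly6C+, with 40.2 and 39.2 in CD115-Ly6C- (deviation -0.92 ± 0.15 (SE), edgeR adjusted p = 0.098). Irf7, a transcription factor of the interferon response, was at 6.29 and 9.18 CPM, overlapping 8.53 and 10.9 in CD115+Ly6C+ and far under 33.05 and 26.96 in CD115-Ly6C-. In Oasl2 and Rtp4 both CD115+Ly6C- libraries lay above CD115+Ly6C+, so these genes were between the other subsets. Rtp4 overlaps Masp1.

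**Figure D4:**
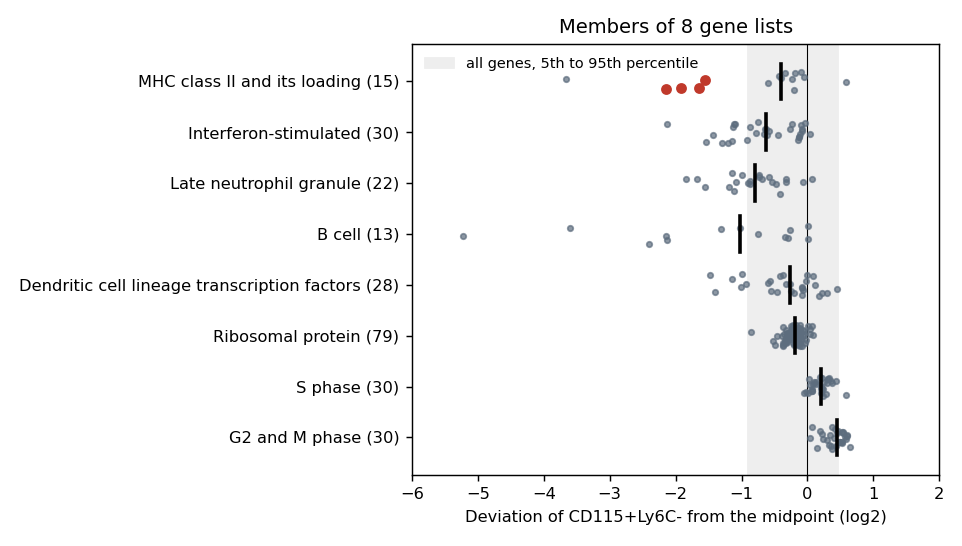
Deviation from the midpoint (log2) of every tested member of 8 gene lists, with the number of members in brackets, the list's median as a black bar, called genes in red and the 5th to 95th percentile of all genes in grey. S phase and G2 and M phase members crowd between -0.05 and 0.65, while the 4 called class II genes lie left of the grey band.

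Transcription factors of the dendritic cell lineages had a median deviation of -0.26, and 22 of the 28 tested lay below 0. By edgeR 0 were called, with 7 below (7.42% over all genes) and 2 above (7.64%) at an unadjusted p under 0.05, and DESeq2 called 1 below (1.61% over all genes). In 5 of the 28 both CD115+Ly6C- libraries lay under all 4 others, against 5.65% of all genes tested, and in 3 both lay above, against 6.16%. Irf8, the factor needed for type 1 conventional dendritic cells, was at 2317 and 2714 CPM, overlapping 2672 and 2478 in CD115+Ly6C+ and close to 2015 and 2209 in CD115-Ly6C-. Spi1, which encodes PU.1, deviated by -0.02. Tcf4, the factor of plasmacytoid dendritic cells, was at 187 and 141 CPM, above 88.5 and 68.4 in CD115+Ly6C+ and overlapping 161 and 208 in CD115-Ly6C- (deviation 0.44 ± 0.16 (SE), edgeR adjusted p = 0.26). Nfil3, which acts upstream of Id2 in lymphoid and dendritic precursors, was at 48.7 and 52.4 CPM, near 43.4 and 36.6 in CD115+Ly6C+ and under 136 and 139 in CD115-Ly6C-. Its deviation was -0.55 ± 0.11 (SE, edgeR adjusted p = 0.14).

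The CD115+Ly6C- libraries differed from each other in neutrophil transcripts. The 6 neutrophil markers summed to 214 CPM in replicate 1 and 842 in replicate 2, against 3864 and 3602 in CD115+Ly6C+, with 295 and 140 in CD115-Ly6C-. All 22 late neutrophil granule genes tested were higher in replicate 2. The list's median deviation was -1.80 in replicate 1 and -0.26 in replicate 2, on the scale of log2 (CPM + 0.5). S100a8, a calprotectin subunit, was at 62.1 and 246 CPM, and Ltf, lactoferrin, at 39.1 and 160. The fitted list median was -0.80, and edgeR called 0 of the 22. At an unadjusted edgeR p under 0.05 there were 5 below (7.42% over all genes) and 0 above, and DESeq2 called 4 below (1.61% over all genes). In the same libraries Cd74 was at 19.0 and 19.1 CPM and H2-Ab1 at 12.5 and 12.6, while other class II list genes differed more, such as Ifi30 with deviations of -0.60 and -0.27 and H2-DMb2 with -0.0024 and -0.37. Median deviations of the interferon list also differed, at -0.68 and -0.43, as did those of the ribosomal protein genes, at -0.33 and -0.05. Among lists with larger gaps were immediate early and stress genes, at -0.86 and 0.06, and monocyte genes, at -0.56 and -0.02. Erythroid genes went the other way, at 0.15 in replicate 1 and -0.86 in replicate 2.

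**Figure D5:**
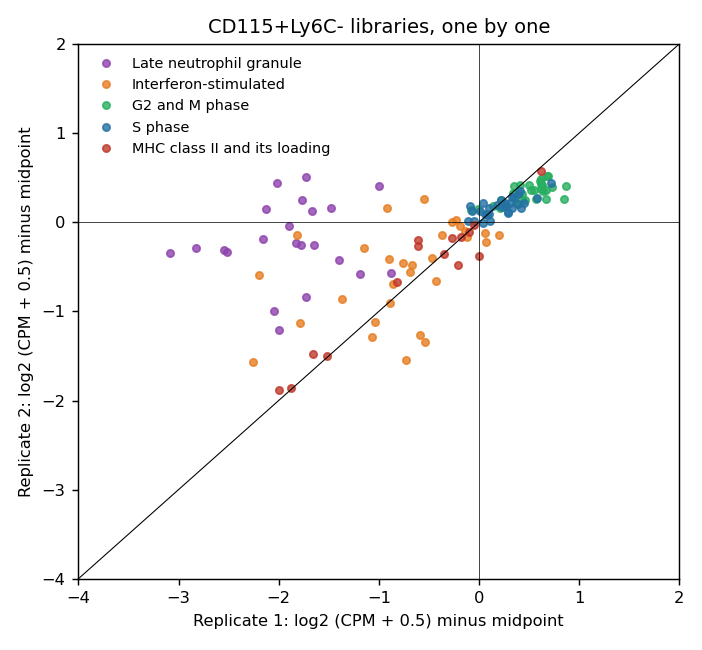
Deviation from the midpoint in CD115+Ly6C- replicate 2 against replicate 1, as log2 (CPM + 0.5), 1 point per gene of 5 lists, with the line of equal values. The 4 called class II genes lie close to the line, and all 22 late neutrophil granule genes lie above it.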

How the data were processed

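Bowtie2, RSEM and the mm10 build are named in the submitters' processing notes, with no versions in the sources used. The deposited sample tables hold RSEM expected counts and FPKM, per the file headers. Genes left out of a table were taken as 0. Expected counts as deposited (12.6% of the positive ones not whole, tolerance 1e-06) were rounded. They were fitted in edgeR 4.0.16 (R 4.3.3), with TMM scaling, filterByExpr (minimum count 10, minimum total 15) and 1 coefficient per subset over all 6 libraries. The quasi-likelihood F test of CD115+Ly6C- against the mean of the other coefficients was adjusted by Benjamini-Hochberg over 12127 genes, threshold 0.05. The common dispersion was 0.0231, with 3 residual and 5.6 prior degrees of freedom. SE is the log2 deviation over the square root of F. With 17961541 to 19450329 counts a library, genes under about 1 CPM rest on few reads. RefSeq (GRCm38.p6) matched 15332 of 15357 Entrez identifiers and gave coordinates and promoter sequences. Of the class II list, only the H2 genes were counted for promoters, and 8 of them had one there. A motif was searched on both strands.

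Members and all 34 lists were chosen with earlier results of these data known. Named genes were those of the sorted proteins and 3 receptors, the 3 given marker genes, called genes lying beyond both subsets, and uncalled members of lists with a call; others are named as chosen after their values were seen. This holds for the S phase, mitotic, interferon, transcription factor and granule genes too. Alternatives were DESeq2 1.42.0, RLE scaling, library totals, no filter, a replicate block, removal of a length trend, limma 3.58.1 voom and leaving out each library.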

Additional observations from a re-analysis of the deposited data

How the results depend on the processing

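Under all 13 alternatives run, the 6 called genes kept a negative deviation. Each was already below every other library in both CD115+Ly6C- libraries, and all alternatives used the same counts. The sign could therefore hardly change, and its constancy is not support. Counts are given as above and below the midpoint, then above and below both subsets, then above and below both with both pairwise tests passed. DESeq2 gave 137 and 195, 66 and 100, and 20 and 46. The fit with no filter on low counts, over 16108 genes and with 24.3 prior degrees of freedom, gave 174 and 237, 74 and 111, and 26 and 61. limma voom gave 0 above and 2 below at each step. RLE scaling gave 0 above and 6 below at each step, and so did library totals and the length correction apart from 5 below at the last. Leaving out 1 library gave 0 to 8 above and 0 to 56 below the midpoint, 0 to 3 above and 0 to 52 below both, and 0 to 2 and 0 to 41 by the pairwise rule. The cause of these ranges was not tested. A lone library left in a subset is assumed to vary like the others.

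The labels do not say what a replicate number marks. Same-numbered deviations correlated at -0.08 (CD115+Ly6C- with CD115+Ly6C+), -0.10 (with CD115-Ly6C-) and 0.36 (between those subsets), so the libraries were not treated as paired. With the replicate block 0 genes were above and 6 below the midpoint, 5 below with both pairwise tests passed, with Cd7 in and H2-Eb1 out (edgeR adjusted p = 0.0595), and the class II list median was -0.41.

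The class II median (-0.40) was -0.43 with library totals, -0.38 with the length correction and -0.42 with voom, and -0.42 to -0.31 with 1 library left out. That of the interferon list ran from -0.72 to -0.44, and that of the late granule list from -2.15 without CD115+Ly6C- replicate 2 to -0.15. Deviations near 0 changed sign for Spi1 (0.0059 with the length correction, -0.077 to 0.054 with 1 library left out), and over the same left-out libraries for Kit (-0.049 to 0.14), Irf8 (-0.0045 to 0.22), Ctss (-0.13 to 0.036) and Ltf (-1.81 without CD115+Ly6C- replicate 2 to 0.21 without replicate 1). Depth limits genes of few reads, such as H2-Eb2 and Ciita.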

Other observations

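The 13 B cell genes tested had a median deviation of -1.02 in CD115+Ly6C-, with 7 below (7.42% over all genes) and 0 above at an unadjusted edgeR p under 0.05 and 0 called, and DESeq2 called 2 below (1.61% over all genes). Their median log2 difference was -2.35 against CD115-Ly6C- and -0.14 against CD115+Ly6C+. The 79 ribosomal protein genes had a median of -0.19, with 74 below 0 and 0 called by edgeR or DESeq2, and 8 below at an unadjusted edgeR p under 0.05, a share near the 7.42% over all genes. The 78 oxidative phosphorylation genes had a median of 0.01.

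The 4 megakaryocyte markers summed to 0.89 and 0.95 CPM in CD115+Ly6C-, below 1.84 and 6.05 in CD115+Ly6C+ and below 8.10 and 6.71 in CD115-Ly6C-. The 3 eosinophil markers summed to 0.052 and 22.3 CPM in the CD115+Ly6C- libraries, with 1.56 and 34.5 in CD115+Ly6C+, with 0.86 and 6.96 in CD115-Ly6C-, the first library of each subset being the lower.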
